A study of Saccharomyces cerevisiae with 7 samples.

Results

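The genes described are 5 cell wall protein genes of budding yeast, CCW12, TIP1, ECM33, SCW4 and UTH1, taken by name from a table of 337 genes. They were chosen by their readthrough index (RTI) in the sua7-1 mutant against wild type (WT), so their values are given as a description, and no test is attached to them. The RTI was measured by GRO-seq, a run-on assay that labels and sequences the RNA made by engaged RNA polymerases on each strand, in 3 sua7-1 and 4 WT libraries. The sua7-1 allele changes 1 amino acid of TFIIB, a glutamic acid to a lysine, and is also known to shift transcription start sites and to slow growth in the cold. Both strains share the BY4733 background, which carries auxotrophic alleles of his3, trp1, leu2, met15 and ura3, and both were grown in YPD at 30 °C to an A600 of 0.8 before a run-on of 5 min with BrUTP. The labels number the sua7-1 libraries 2, 3 and 4 and the WT libraries 1, 2, 3 and 4, and they do not say which libraries came from separate cultures. The RTI is the number of reads from 50 to 500 nt beyond the mRNA 3' end of the annotation divided by the number in the mirror window before it. An RTI of 0.1 thus means 1 downstream read for every 10 upstream. Only ratios were analysed and not the reads behind them, so the depth was not measured and no counting error of a value is given.

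The yeast cell wall is a mesh of glucan fibres and chitin with an outer coat of heavily mannosylated proteins. Many of these proteins are made with a lipid (GPI) anchor in the endoplasmic reticulum and are later joined to the glucan, and others are enzymes that cut and rejoin the fibres. Some of their genes are among the strongly transcribed genes of cells growing in rich medium. At the end of such a gene the nascent RNA is cleaved at the poly(A) site by the cleavage and polyadenylation complexes, and the polymerase that runs on is released with the help of the Rat1 exonuclease. TFIIB is the general factor that places the polymerase at the promoter, and the study asked whether it also acts at this last step. CCW12, TIP1 and ECM33 encode GPI-anchored mannoproteins. CCW12 is a small structural protein of the wall, TIP1 belongs to a family induced by temperature shock, and ECM33 is needed for an intact wall. SCW4 encodes a soluble wall protein resembling glucanases. UTH1 belongs to the SUN family, whose members take part in wall formation and septation.

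Yeast poly(A) sites are preceded by an efficiency element in the RNA, of which UAUAUA is the most effective form and the similar hexamer UAUGUA another, and by an A-rich positioning element such as AAUAAA. Both were looked for as DNA letters on the sense strand in the 300 nt after each stop codon of the R64 genome, a stretch in which many yeast mRNAs end; the ends of these mRNAs were not placed in it here. TATATA, a palindrome that reads alike on both strands, was found at position 63 after the stop codon of CCW12 and at positions 178 and 190 after that of UTH1. TATGTA was found once after ECM33, at position 108, once after TIP1, at position 59, and at positions 285 and 293 after SCW4, and its reverse complement TACATA after none of the 5. Each gene thus held one of these forms and none held both. In the annotation, 76.4% of the 331 measured genes that could be matched and 68.4% of 5997 protein-coding genes held at least one of these forms in a window of this length, and 64.7% and 55.4% held TATATA alone or with the other form. The shares with TATGTA were 34.7% and 29.6%. AATAAA, which shares no match with these letters, was found on the sense strand after none of the 5 genes and after 46.2% of the measured genes. These matches describe the letters and are not mapped sites. The first match of each gene is shown with 12 bases on either side, from 5' to 3' on the sense strand, with the element in capitals.
CCW12 (chrXII:369617-369646, minus strand): gcatttaacaaaTATATAacaattgggatt
UTH1 (chrXI:520790-520819, plus strand): tagatattatcaTATATAgcatattatata
TIP1 (chrII:372027-372056, minus strand): ataccttctcttTATGTAattgttagttcg
SCW4 (chrVII:1048496-1048525, minus strand): cgtgtacggttcTATGTAaatatgtacgat
ECM33 (chrII:394838-394867, plus strand): cactgaattttaTATGTAgataaaatttta

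The surroundings of the 5 genes also differed. CCW12 (YLR110C) has a coding region of 402 nt on chromosome XII of R64, from 369697 to 370098, which is shorter than the upstream window of the RTI. The convergent gene AHP1 ends 385 nt after its stop codon. UTH1 (YKR042W) lies on chromosome XI from 519527 to 520624, and the convergent gene SHB17 ends 272 nt after it. SCW4 (YGR279C) lies on chromosome VII from 1048798 to 1049958, and CWC22 ends 333 nt after it from the other strand. ECM33 (YBR078W), with a coding region in 2 segments, lies on chromosome II from 393123 to 394742, with RPG1 ending 640 nt after it. TIP1 (YBR067C) lies on the same chromosome from 372103 to 372735 and has no annotated gene end on either strand within 800 nt of its stop codon. Downstream on the same strand, another gene begins only 1390 nt (UIP5, after UTH1) to 11135 nt (after ECM33) away. The 300 nt after the stop codon were 66.7% A and T for TIP1, 72.3% for UTH1, 74.0% for CCW12 and 74.3% for both SCW4 and ECM33, against a median of 70.0% over the measured genes.

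**Figure D1:**
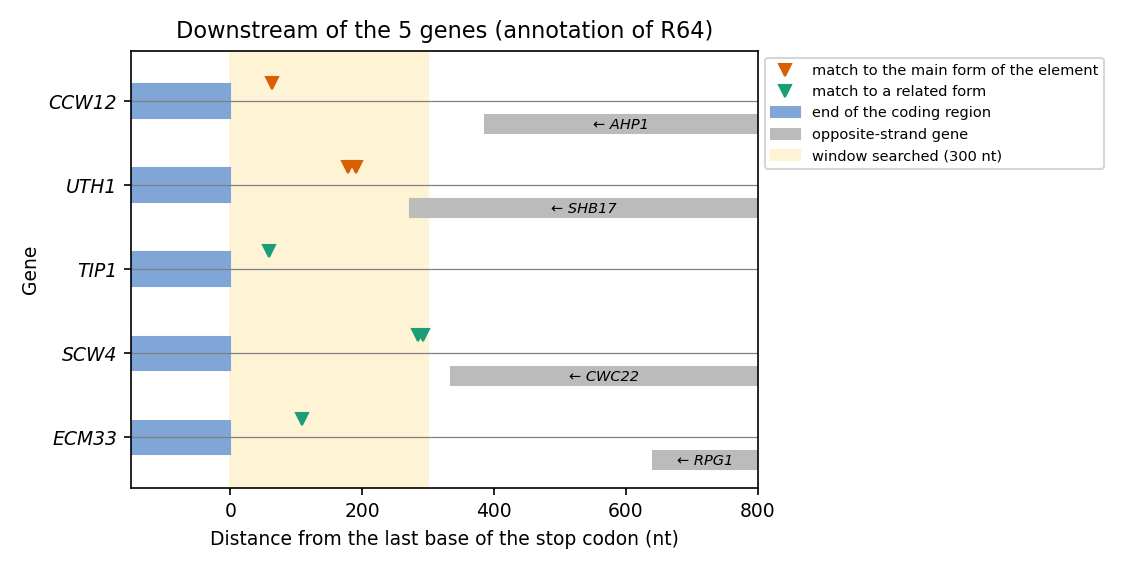
Map of the 800 nt downstream of the 5 genes, drawn to scale from the last base of the stop codon (x axis, nt) with 1 gene per line. Triangles mark the efficiency-element matches in the 300 nt searched, and grey bars the opposite-strand genes, which reach to 385 nt (CCW12), 272 nt (UTH1), 333 nt (SCW4) and 640 nt (ECM33) from the stop codon and are absent from the map of TIP1.

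UTH1, TIP1 and SCW4 had more downstream signal in every sua7-1 library than in any WT library, while CCW12 and ECM33 overlapped between the strains. The mean RTI in sua7-1 was 12.3 times the WT mean for UTH1, 14.7 times for TIP1, 7.37 times for SCW4 and 0.936 times for ECM33. Complete separation upward was thus seen in 3 of the 5 genes, and it was seen in 264 of all 337 genes (78.3%). Since the 5 genes were picked with this contrast known, nothing is read from their count.

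For UTH1 the RTI was 0.106, 0.179 and 0.135 in the sua7-1 libraries (replicates 2, 3 and 4), against 0.0200, 0.00118, 0.00719 and 0.0172 in WT replicates 1, 2, 3 and 4. The lowest sua7-1 library was 5.30 times the highest WT library, and UTH1 is the only one of the 5 genes with a value in WT replicate 4. UTH1 averaged 0.140 ± 0.0367 in sua7-1 (SD, n = 3) and 0.0114 ± 0.00877 in WT (SD, n = 4). On the scale of log2(RTI + 0.002), on which changes of genes with an RTI near 0.002 are understated, the difference was 3.72 with a standard error of 0.64. The WT libraries varied much more than the mutant ones on this scale, with an SD of 1.28 against 0.371 in sua7-1, and WT replicate 2 was the low one.

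TIP1 had 0.0663, 0.118 and 0.0919 in sua7-1 replicates 2, 3 and 4, against 0.0107, 0.00417 and 0.00389 in WT replicates 1, 2 and 3. No library of one strain came near the other, since the lowest sua7-1 value was 6.19 times the highest WT value. The means were 0.0919 ± 0.0257 in sua7-1 and 0.00626 ± 0.00386 in WT (SD, n = 3 each), with a log2 difference of 3.57 with a standard error of 0.53. Among the 5 genes, TIP1 kept the steadiest place in its libraries. In sua7-1 it stood above 61.5%, 60.0% and 61.1% of the genes of the library, and in WT above 41.2%, 53.9% and 46.4%.

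SCW4 had 0.0285, 0.0346 and 0.0277 in sua7-1 replicates 2, 3 and 4, against 0.0103, 0.00103 and 0.000965 in WT replicates 1, 2 and 3. The sua7-1 libraries lay close together, with an SD of 0.164 on the log2 scale that is smaller than that of all but 5.93% of the genes, whereas WT replicate 1 stood far above WT replicates 2 and 3. The means were 0.0303 ± 0.00377 in sua7-1 and 0.00411 ± 0.00538 in WT (SD, n = 3 each), and the log2 difference was 2.74 with a standard error of 0.61. Without WT replicate 1 this difference was 3.42. WT replicate 1 also had a higher median over all its genes (0.0142) than WT replicates 2 and 3 (0.00349 and 0.00459), and the part of this in the value of SCW4 was not tested. Relative to the median of its own library, SCW4 was at 0.689, 0.407 and 0.407 in sua7-1 and at 0.728, 0.296 and 0.210 in WT, so that it lay below the middle of the genes in every library of both strains.

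CCW12 had the highest mean RTI of the 5 genes in both strains and the least even values. It had 0.25, 0.0714 and 0.889 in sua7-1 replicates 2, 3 and 4, against 0.118 in WT replicate 2, while WT replicates 1 and 3 were listed at 0. Each of its values above 0 equals, as listed, a ratio of small whole numbers. The read numbers behind these values were not analysed, and their part in the unevenness was not tested. The strains overlapped, because sua7-1 replicate 3 lay below WT replicate 2. The means were 0.403 ± 0.430 in sua7-1 and 0.0392 ± 0.0679 in WT (SD, n = 3 each), so that in each strain the SD exceeded the mean. The log2 difference was 5.02 with a standard error of 1.39, the third largest of all 337 genes, and it was 6.99 without WT replicate 2 and 4.04 without WT replicate 1 or WT replicate 3. With 2 of the 3 WT values at 0 it also moved with the pseudocount, to 6.35 at 0.0005 and 3.51 at 0.01. With the zeros taken as missing it was 1.09, since only WT replicate 2 then remained on that side. On the log2 scale the spread of CCW12 between libraries of a strain (SD 1.80 in sua7-1 and 3.41 in WT) was larger than that of 99.1% and 99.4% of the genes.

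The stretch before the stop codon of CCW12 was compared with the rest of the genome, since shared sequence can cost a gene its reads. It is not the upstream window of the RTI, which is counted from the mRNA 3' end and was not placed here. The 500 nt before the stop codon of CCW12 aligned over 450 nt, with 81.1% identity, to CCW22, an annotated pseudogene on chromosome IV. Of 476 words of 25 nt in that stretch, however, none occurred a second time in the genome, as in 230 of the 331 measured genes. SCW4 aligned over 501 nt to its relative SCW10 with 73.7% identity and had 8 repeated words of 476 (1.68%), and TIP1 had 4 (0.840%). UTH1 aligned to its relatives NCA3, SIM1 and SUN4 with 72.9%, 71.8% and 71.1% identity and ECM33 to PST1 with 70.0%, neither with a repeated word. The 500 nt after the stop codon held no repeated word in any of the 5 genes. The read length and the aligner's treatment of repeats are not given in the sources used here, and the part of sequence sharing in the uneven CCW12 values was not tested.

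ECM33 had next to no downstream signal in either strain. Its RTI was 0.00206 in sua7-1 replicate 4 and 0 in the other sua7-1 libraries, against 0 in WT replicates 1 and 3 and 0.00220 in WT replicate 2. The means were 0.000687 ± 0.00119 in sua7-1 and 0.000734 ± 0.00127 in WT (SD, n = 3 each), and the log2 difference was -0.02 with a standard error of 0.55. In sua7-1 replicates 2 and 3, where ECM33 was at 0, only 11 and 4 genes were listed at 0 at all, and in sua7-1 replicate 4 it stood above 3.56% of the genes. In WT replicates 1 and 3, 10 and 27 genes were at 0, ECM33 and CCW12 among them. In WT replicate 2, by contrast, ECM33 stood above 39.8% of the genes, at 0.631 times the library median. The read numbers behind its values were not analysed. Of all 337 genes, 4.15% had a smaller log2 difference.

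**Figure D2:**
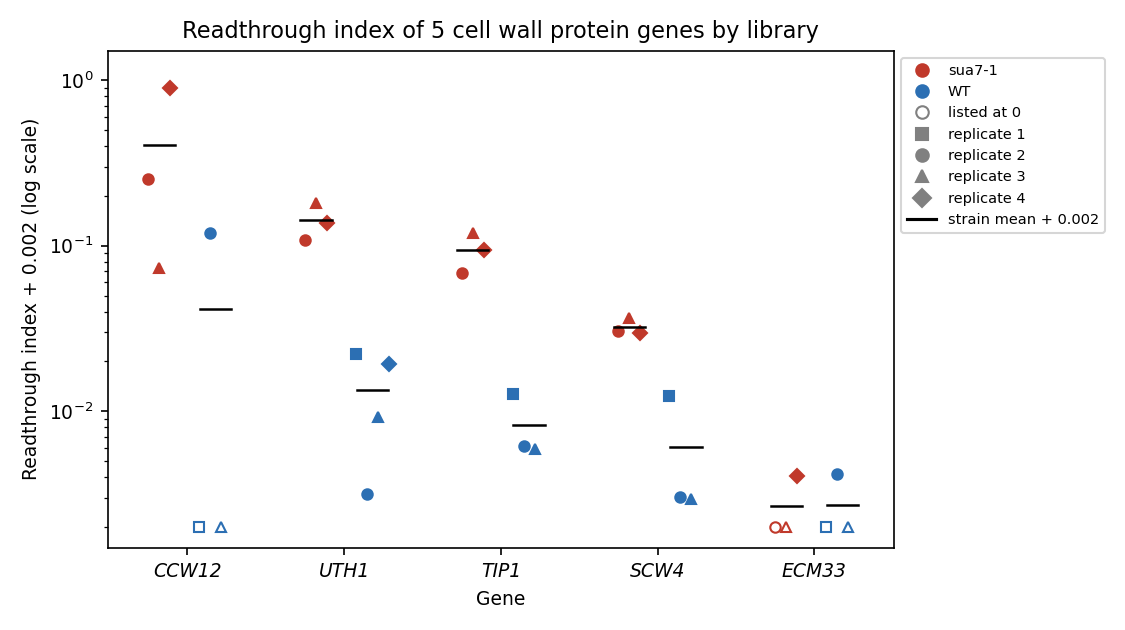
RTI of the 5 genes (y axis, RTI + 0.002 on a log scale) in each library, sua7-1 in red and WT in blue, with the replicate number shown by the marker, open markers for values listed at 0 and a bar at the strain mean plus 0.002. UTH1, TIP1 and SCW4 have all 3 sua7-1 points above all WT points, CCW12 spreads from 0.0714 to 0.889 in sua7-1, and both strains of ECM33 stay at or under 0.00220.

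In sua7-1 the order of the mean RTI was CCW12, UTH1, TIP1, SCW4 and ECM33. The ranges of CCW12 and UTH1 overlapped, with CCW12 higher in 2 of 3 libraries, and so did those of UTH1 (0.106 to 0.179) and TIP1 (0.0663 to 0.118), although UTH1 was higher in 3 of 3 libraries. The ranges of TIP1 and SCW4 did not overlap, nor did those of SCW4 and ECM33. The order of the WT means was the same, but there every pair of neighbours overlapped in range. UTH1 was above TIP1 in 2 of 3 WT libraries, the exception being WT replicate 2, and TIP1 was above SCW4 in 3 of 3.

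Set against all genes of the same library, a comparison in which any shift of a whole library cancels, the 5 genes fell into different parts of the distribution. UTH1 stood above 75.2%, 69.2% and 70.0% of the genes in sua7-1 replicates 2, 3 and 4, against 60.0%, 26.3%, 58.9% and 50.0% in WT replicates 1, 2, 3 and 4. SCW4 stood above 43.9%, 24.9% and 28.2% in sua7-1, against 40.0%, 23.4% and 18.5% in WT, and these places overlapped. UTH1 and TIP1 were higher placed in every sua7-1 library than in any WT library. The share of all genes for which this held was not counted, so nothing is read from it. The place of UTH1 in WT replicate 4 is among 38 genes only. CCW12 stood above 91.7%, 45.5% and 97.6% of the genes in sua7-1 and above 92.5% in WT replicate 2, with none below it in WT replicates 1 and 3. The library medians ranged from 0.0414 to 0.0850 in sua7-1 and from 0.00349 to 0.0150 in WT, where WT replicate 4 gave a value for 38 genes only and the other 6 libraries for 314 to 337. After dividing the values of each library by their median, the log2 differences were 3.06 for CCW12 and 1.13 for UTH1. They were 0.62 for TIP1, 0.37 for SCW4 and -0.98 for ECM33. In the order named, the standard errors were 2.43, 0.50, 0.31, 0.47 and 0.92. The median over all genes was -0.20 on that scale and 2.44 without the division. A value of 0 cannot be changed by the division. CCW12 had such values in WT replicates 1 and 3, and ECM33 in those and in sua7-1 replicates 2 and 3.

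**Figure D3:**
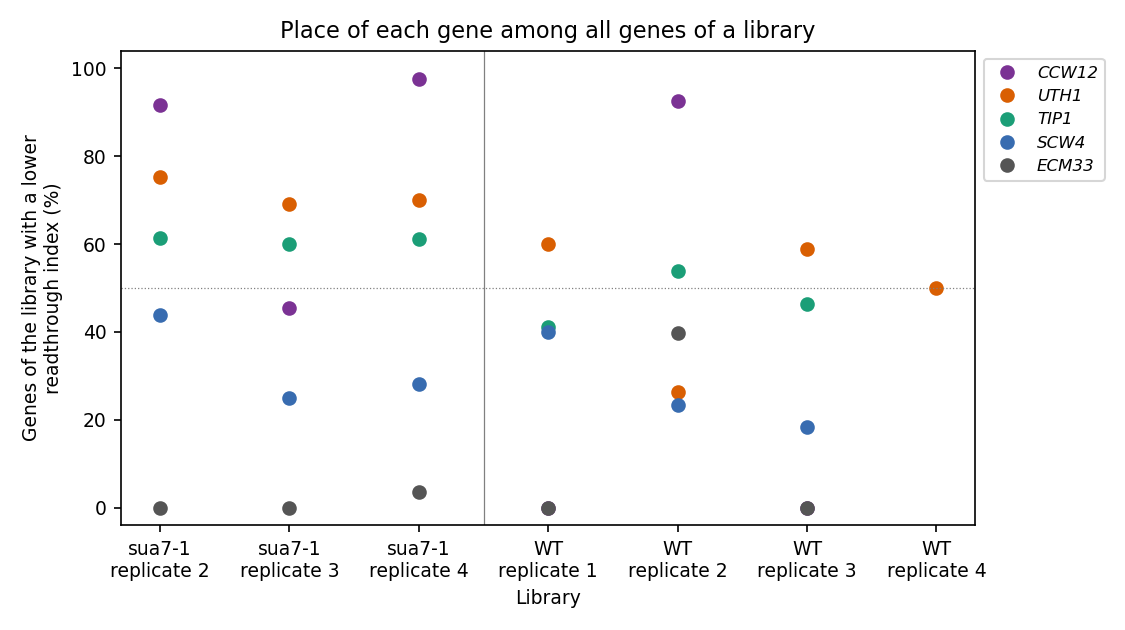
Share of the genes of each library (y axis, %) with a lower RTI than the gene shown, for the 3 sua7-1 libraries on the left and the 4 WT libraries on the right; a value listed at 0 has no gene below it. In sua7-1, TIP1 stays between 60.0% and 61.5%, ECM33 at or under 3.56%, and CCW12 moves between 45.5% and 97.6%. In WT replicate 2, ECM33 is at 39.8% and CCW12 at 92.5%, and both have no gene below them in WT replicates 1 and 3.

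For each gene the genes of the table with the most similar values were found by the mean absolute difference of log2(RTI + 0.002) over the libraries they share. Nearest to TIP1 were POR1, the mitochondrial porin (0.176 over 6 libraries), and VMA2, a subunit of the vacuolar proton pump (0.184). Nearest to SCW4 were LSP1, a protein of membrane eisosomes (0.269), and ERG11, a sterol synthesis enzyme (0.383). Nearest to UTH1 were RPL43B, a ribosomal protein gene (0.319 over 7 libraries), and CPS1, a vacuolar carboxypeptidase (0.342 over 6). ECM33 was closest to RPS22A, another ribosomal protein gene (0.402), and to FIT2, a mannoprotein of the wall that retains iron (0.450). CCW12 had no close companion, as its nearest genes were FPR1 at 1.57 and THS1 at 1.91.

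The other genes of the wall were taken from a list by function, which did not hold FIT2 or its relative FIT3. Both were measured and called in neither direction, with log2 differences of 0.24 and 0.86. The glucanase gene DSE4, also outside the list, was called higher with a log2 difference of 1.52 (adjusted p = 0.026 from limma). Of 57 listed genes besides the 5, 16 were among the 337 measured, and of these 11 rose in sua7-1, none fell and 5 were called in neither direction (limma, with a call at a log2 change above 1 or below -1 and a Benjamini-Hochberg adjusted p under 0.05 over all genes). This is 68.8% of the list, beside 253 of all 337 genes that rose (75.1%) and 3 that fell. The log2 fold changes of these genes, all 16 above 0, had a median of 1.86, beside 2.44 over all genes. At an unadjusted p under 0.05, 12 were higher and 0 lower. With each library divided by its median, which asks how genes moved relative to each other, 1 of the 16 rose (CIS3) and 2 fell (PIR1 and EGT2), beside 22 and 52 of all genes. CIS3 was listed at 0 in WT replicates 1, 2 and 3, values that the division cannot change. Its undivided change was 0.70, without a call, at a pseudocount of 0.01. With a pseudocount of 0.01, 6 of the 11 calls were left, beside 233 of all 337 genes called higher. Leaving out 1 library at a time gave 8 to 15 of the 16, beside 213 to 277 of all 337 genes.

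By class, all 3 Pir proteins (PIR1, HSP150 and CIS3, which are linked to glucan without a GPI anchor) rose, as did 3 of 4 GPI-anchored proteins, 3 of 7 glucanases and transglycosylases, and both genes of glucan synthesis. The Pir calls of PIR1 and HSP150 were lost when sua7-1 replicate 3, sua7-1 replicate 4, WT replicate 2 or WT replicate 3 was left out, and that of the GPI-anchored CCW14 without sua7-1 replicate 2 or 3 or WT replicate 2 or 3. The largest changes were those of KRE6, which is needed for glucan assembly, and RHO1, the GTPase that regulates glucan synthase. KRE6 had 0.0742, 0.147 and 0.150 in sua7-1, against 0.00550 and 0.00859 in WT replicates 2 and 3, the only WT values, which gave a log2 fold change of 3.75 (adjusted p = 0.00043 from limma, standard error 0.59). RHO1 had 0.0316, 0.0507 and 0.0559 in sua7-1, against 0.00664, 0.00132 and 0.00141 in WT replicates 1, 2 and 3, a log2 fold change of 3.35.

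The smallest changes of the list were those of CRH1, a transglycosylase that joins chitin to glucan, and EGT2, a GPI-anchored protein of cell separation. CRH1 had 0.000745, 0 and 0.00329 in sua7-1 and 0.00126, 0 and 0.000887 in WT replicates 1, 2 and 3, a log2 difference of 0.21 (adjusted p = 0.74 from limma). It shared with ECM33 an RTI at or under 0.00329 in every library with a value. EGT2 had 0.0412, 0.0662 and 0.0627 in sua7-1 and 0.0657, 0.0121 and 0.0174 in WT, so that WT replicate 1 lay within the sua7-1 range. Its log2 difference was 1.12 (adjusted p = 0.12 from limma), and without WT replicate 1 it was 1.79 and passed the test (adjusted p = 0.0040, and 0.11 to 0.38 without each other library in turn).

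SCW10 was the only measured gene among the listed relatives of the 5 genes, since PST1, SUN4, SIM1, NCA3 and the TIR genes were not in the table. It had 0.00509, 0.0112 and 0.0132 in sua7-1 replicates 2, 3 and 4, against 0.00191, 0 and 0.000595 in WT replicates 1, 2 and 3, with no overlap between the strains. In log2 units it changed by 2.05 (adjusted p = 0.0046 from limma, standard error 0.53), beside 2.74 for SCW4, and its RTI was below that of SCW4 in all 6 libraries with a value. The call of SCW10 was lost with a pseudocount of 0.01, where the change was 0.85, and after division by library medians, where it was 0.67. The difference between both genes was not tested.

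**Figure D4:**
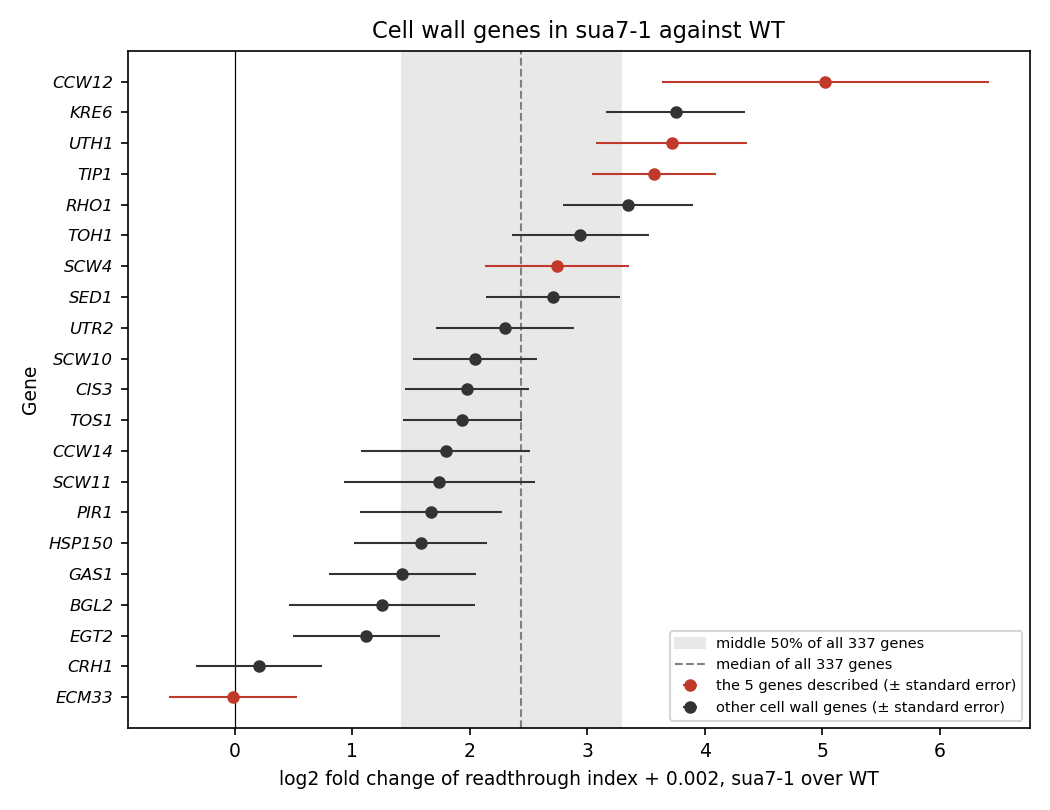
log2 fold change of RTI + 0.002 in sua7-1 over WT (x axis, points with the standard error from limma) for the 5 genes in red and the 16 other cell wall genes in black, with the median of all 337 genes at 2.44 (dashed) and their middle 50% shaded. CCW12 at 5.02 and ECM33 at -0.02 are the ends of the order, and the 16 other genes lie between 0.21 and 3.75.

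The proteins of the wall reach the surface through the secretory pathway, and 15 of 69 listed genes of that pathway were measured. Of these 11 rose, none fell (0 also at an unadjusted p under 0.05) and 4 were called in neither direction, with a median log2 fold change of 2.63. These 11 are 73.3% of the list, close to the 75.1% over all genes, whose median was 2.44. SSH1, which forms a protein channel in the membrane of the endoplasmic reticulum, and OST3, a subunit of oligosaccharyltransferase, changed most, by 4.88 and 3.53 on the log2 scale. SSH1 had 0.253, 0.368 and 0.275 in sua7-1, against 0.0150, 0.00424 and 0.00760 in WT replicates 1, 2 and 3. PMT2, which starts the O-mannosylation of wall proteins, had 0.0929, 0.142 and 0.0778 in sua7-1 and 0.0479, 0.0473 and 0.0568 in WT replicates 1, 2 and 3, a log2 difference of 0.97 (adjusted p = 0.086 from limma). SEC23, a coat protein of vesicles leaving the endoplasmic reticulum, had 0.0589, 0.0585 and 0.0866 in sua7-1 and 0.0802, 0.0417 and 0.0806 in WT, a log2 difference of 0.05. Divided by library medians, SSH1 alone rose, and PMT2 and SEC23 fell.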

How the data were processed

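GRO-seq libraries of sua7-1 (3) and WT (4) cells were analysed. Per the labels, adapters were removed by cutadapt, and reads were mapped to the S288C genome (R64-3-1 by the paper's methods, R64 by the submitters' processing notes; aligner not given in the sources used here), and the authors deposited, for each gene and library, the ratio of reads 50 to 500 nt after the mRNA 3' end to reads in the mirror window before it. The table holds genes with 5 or more libraries with a value and 2 or more in each strain. The ratio cancels library size but hides read numbers, so counting intervals were not made. The deposited mean ratios, log2 ratios and p-values of the authors were not used. A lower part of the table (168 rows) repeats CCW12, ECM33 and UTH1 with equal values and was left out. No pair of libraries shared an RTI above 0 for any gene. The paper's methods give 3 biological replicates per strain, and the labels number 4 WT libraries and do not say which of them those are. The p-values rest on the library-to-library spread alone.

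Log2(RTI + 0.002) was fitted for all 337 genes with limma 3.58.1 (R 4.3.3), strain as the only factor, p-values adjusted by Benjamini-Hochberg over all genes. This replaced the one-sided test per gene in the paper's methods. The fit was tested on simulated data in which every gene had the same spread. The test thus does not cover genes as uneven as CCW12. Members and lists were chosen with earlier results of these data known. Genes named are the 5 members, their measured relatives, the 2 largest and 2 smallest changes of each list, and the 2 genes nearest to each member. Genes named outside this rule (CIS3, PIR1, HSP150, CCW14, FIT3 and DSE4) were chosen after their values were seen. Positions, motifs and copies (blastn 2.17.0, E-value limit 1e-05) came from RefSeq R64, in which 331 genes (98.2%) were found by systematic name. Distances start at the stop codon, since the authors' annotation of mRNA 3' ends was not used here. Alternatives were other pseudocounts, filters, zeros as missing, median scaling, limma options, a replicate block, the rule of the study and each library left out.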

Additional observations from a re-analysis of the deposited data

How the results depend on the processing

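With a pseudocount of 0.01, the log2 differences of SCW4 and TIP1 were 1.57 and 2.64, 5 genes of the whole table fell, and 6 of the 16 other cell wall genes rose, beside 233 of all 337 genes. Limiting the fit to genes with a mean RTI of at least 0.01 tested 10 of these 16, of which 7 rose, beside 219 of 268 genes. With zeros taken as missing, the difference of CCW12 was 1.09, and ECM33 could not be fitted. When the values of each library were divided by their median, the differences were -0.98 for ECM33, 0.37 for SCW4, 0.62 for TIP1 and 1.13 for UTH1. On that scale 22 genes of the table rose and 52 fell, as did 1 and 2 of the 16 cell wall genes and 1 and 2 of the 15 secretory pathway genes. By a rule modelled on that of the study (one-sided, unadjusted, ratio of means above 2, as its results use; its methods word the minimum as a log2 value), 6 of the 15 secretory pathway genes rose, 9 of the 16 cell wall genes and 191 of all 337. The cause of these shifts was not tested. Leaving out 1 library at a time gave 2.39 to 3.42 for SCW4, 3.37 to 3.92 for TIP1, 3.14 to 4.07 for UTH1, 4.04 to 6.99 for CCW12 and -0.36 to 0.34 for ECM33. A replicate block gave 3.14 for CCW12, -0.54 for ECM33, 3.48 for SCW4, 3.91 for TIP1 and 4.07 for UTH1, and 15 of the 16 cell wall genes rose under it, beside 261 of all 337. In that fit, a replicate number with a value in only 1 strain adds nothing to the difference. Its standard error was 0.69 for CCW12, ECM33, SCW4 and TIP1 alike, so it did not follow the spread of each gene. The deviations of same-numbered libraries had correlations of 0.13, -0.02 and -0.03 across genes for numbers 2, 3 and 4, the last over 38 genes. Of the mutant libraries, sua7-1 replicate 2 alone correlated best with its own number. With so few libraries per strain, these correlations cannot show whether same-numbered libraries shared a culture or batch, and the labels do not say. Without read numbers, an RTI of 0 or near 0.002 cannot be told from a small signal.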
